A study of Mus musculus with 12 samples.

Results

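Interferon-stimulated genes and genes of major histocompatibility complex (MHC) class I presentation were followed in RNA sequencing of whole mouse pancreas. The 33 members were taken by gene symbol from a fixed list, mapped from the Ensembl identifiers of the count files, out of 49585 genes listed, and all 33 passed the filter on low counts that kept 14329 genes. By role they were 16 antiviral effectors, 3 RNA sensors, 4 transcription factors, 4 interferon-inducible GTPases and 6 genes of class I presentation. The mice were C57Bl6, and all were 2 to 4 months old. The 4 groups were mice labelled Atf3-/- with cerulein (libraries C2, C3 and L4), mice labelled Atf3-/- with saline (S1, K4 and Q1), wild type with cerulein (O1, O3 and N3) and wild type with saline (W1, K5 and R3), with 3 animals and 1 library for each animal in a group. Cerulein, an analogue of the gut hormone cholecystokinin that overstimulates acinar cells and brings on acute pancreatitis, was injected 4 times at 50 ug/kg within 4 h, controls received saline on the same schedule, and tissue was taken at 4 h. The series gives the Atf3-/- mice as congenic, and the labels used here name neither the targeted exons nor the litters.

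Interferons are secreted proteins that bind receptors on the same or neighbouring cells. Type I and type III interferons act through the kinases Jak1 and Tyk2, and a complex that holds Stat2 and Irf9 then binds the interferon-stimulated response element (ISRE), whereas the response to interferon gamma runs largely through the gamma-activated site (GAS). The genes switched on this way include effectors that block viral RNA and protein production, sensors of viral RNA, the factors of the pathway itself, GTPases that attack vacuoles holding microbes, and the machinery that loads peptides onto MHC class I molecules for inspection by cytotoxic T cells. Most nucleated cells use these genes, and in pancreas both acinar cells and resident or infiltrating leucocytes can contribute to their RNA.

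The promoters of 27 of the 33 members were matched by symbol to RefSeq sequences of build GRCm38.p6, each covering 250 bases before and 50 bases after a transcription start, 300 bases in all. The ISRE was searched as GAAA, any 2 bases, GAAA, on both strands (TTTC, any 2 bases, TTTC on the other strand), with overlapping matches allowed, and was present in a window of 15 of 27 members (55.6%), against 1079 of 27025 genes with a promoter (3.99%). All 4 GTPases and both matched RNA sensors held it, as did 7 of 12 effectors, 1 of 4 transcription factors (Stat2) and 1 of 5 class I genes (B2m). The GAS was searched as TTC, any 3 bases, GAA and was present in 7 of 27 members (25.9%), against 9.55% of all genes. An ISRE with a spacing of 1 to 3 bases was present in 17 of 27 members (63.0%), against 9.91% of all genes. The promoters of Ifit3, Isg15, Gbp2 and B2m are printed because each stands for a role group and holds the ISRE, and that of Irf1 because it holds the GAS without the ISRE. Capitals mark the ISRE in the first 4 sequences and the GAS in the last.
Ifit3, chr19:34583279-34583578, plus strand: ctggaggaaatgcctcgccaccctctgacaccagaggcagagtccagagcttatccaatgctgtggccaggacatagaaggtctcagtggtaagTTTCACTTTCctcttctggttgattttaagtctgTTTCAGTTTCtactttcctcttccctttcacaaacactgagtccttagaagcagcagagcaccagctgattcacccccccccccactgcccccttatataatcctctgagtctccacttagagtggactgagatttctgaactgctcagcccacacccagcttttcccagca
Isg15, chr4:156200769-156201068, minus strand: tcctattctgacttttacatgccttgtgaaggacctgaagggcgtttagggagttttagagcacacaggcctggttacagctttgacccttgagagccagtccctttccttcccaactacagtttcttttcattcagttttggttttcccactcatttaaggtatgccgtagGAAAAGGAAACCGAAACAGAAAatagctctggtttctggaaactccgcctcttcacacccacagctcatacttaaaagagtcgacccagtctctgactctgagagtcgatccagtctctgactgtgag
Gbp2, chr3:142620413-142620712, plus strand: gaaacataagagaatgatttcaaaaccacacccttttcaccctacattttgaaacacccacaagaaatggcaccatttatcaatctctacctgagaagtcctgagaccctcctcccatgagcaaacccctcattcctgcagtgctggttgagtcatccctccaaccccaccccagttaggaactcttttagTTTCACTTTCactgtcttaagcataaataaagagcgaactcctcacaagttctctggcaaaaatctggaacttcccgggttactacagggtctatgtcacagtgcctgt
B2m, chr2:122147437-122147736, plus strand: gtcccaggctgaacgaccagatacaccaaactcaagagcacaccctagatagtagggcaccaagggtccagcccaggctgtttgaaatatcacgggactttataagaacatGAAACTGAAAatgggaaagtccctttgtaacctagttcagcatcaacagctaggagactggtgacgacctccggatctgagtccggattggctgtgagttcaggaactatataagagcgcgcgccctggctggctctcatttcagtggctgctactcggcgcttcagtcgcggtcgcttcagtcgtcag
Irf1, chr11:53769764-53770063, plus strand: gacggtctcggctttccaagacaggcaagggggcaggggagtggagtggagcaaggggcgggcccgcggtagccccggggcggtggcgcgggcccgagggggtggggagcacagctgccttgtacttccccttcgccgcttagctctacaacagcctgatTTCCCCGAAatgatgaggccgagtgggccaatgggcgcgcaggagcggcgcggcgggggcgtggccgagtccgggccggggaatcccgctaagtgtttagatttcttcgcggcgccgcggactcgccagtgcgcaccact
These matches describe letters in the window and say nothing of what bound there.

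The libraries held between 18292997 and 32158629 counts. Values are counts per 1000000 counts (CPM) on library sizes scaled by the trimmed mean of M values (TMM). Atf3 itself went against the knockout label, at 1375 (C2), 1636 (L4) and 20.7 (C3) CPM in mice labelled Atf3-/- with cerulein, against 23.1 (S1), 7.44 (K4) and 13.5 (Q1) CPM with saline. In wild type it stood at 775 (O1), 599 (O3) and 394 (N3) CPM with cerulein, against 3.23 (W1), 1.13 (K5) and 5.28 (R3) CPM with saline. The mice are therefore called KO-labelled below. Library C3, labelled knockout and cerulein, lay at -55.9 on the principal component that ran from -58.8 to -46.4 in saline libraries and from 61.9 to 86.05 in the other cerulein libraries, so the comparisons that use it are given with and without it. The summed level of 8 acinar markers ran from 216931 (N3) to 433624 (Q1) CPM, so the tissue label held in every library.

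Per kilobase of exon, the light chain and the classical heavy chains of class I stood above all other members, whereas the peptide-loading genes Tapbp (6.35 CPM per kb), Tap2 (3.06) and Tap1 (1.22) did not. B2m, the invariant light chain of class I molecules, averaged 95.5 CPM per kb over the 12 libraries, H2-D1 45.4 and H2-K1, the other classical heavy chain, 34.6. Gbp2 led the GTPases at 16.5 CPM per kb, Bst2 the effectors at 11.0, Irf1 the transcription factors at 3.20 and Ddx58 the sensors at 0.980. The lowest member was Ifi44 at 0.377 CPM per kb. H2-K1 and H2-D1 have near-identical relatives in the MHC region, as do Oas1a, Ifit3 and the Gbp genes in their clusters, so reads may be shared among copies and the levels of these genes are uncertain.

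No member passed the threshold in any of the 5 comparisons. The threshold was an adjusted p under 0.05 by edgeR's quasi-likelihood test with Benjamini-Hochberg adjustment over all 14329 genes. After cerulein in KO-labelled mice, 0 of 33 members and 0% of all genes passed with all 12 libraries. Without C3 the members stayed at 0 of 33, while 29.2% of all genes passed, 18.7% higher and 10.5% lower. After cerulein in wild type, 0 of 33 members passed, against 30.7% of all genes, 17.9% higher and 12.8% lower, and against 37.9% without C3. In the KO-labelled against wild-type comparisons with saline and with cerulein, and in the difference of the cerulein responses, 0% of genes passed with or without C3. At an unadjusted p under 0.05 by the same test, the members after cerulein were Gbp2 and Tap1 in KO-labelled mice, where 22.7% of all genes had such a p, and Irf9 in wild type, where 43.1% did. Without C3 they were Ifit2 in KO-labelled mice (40.6% of all genes) and Irf9 in wild type (46.3%). With all 12 libraries and without C3, the members' counts after cerulein thus lay below the share of all genes. Between genotypes in saline they were Oas1a and Mx2 with C3 (0.419% of all genes) and without it (0.896%), and between genotypes with cerulein there was none with C3 (8.0%) or without it (5.07%). For the difference of responses they were Ifit2, Oas1a, Mx1 and Rsad2 (4.15% of all genes), and without C3 Ifit2, Mx1 and Mx2 (3.45%). In saline and for the difference of responses these counts lay above the share of all genes. Without Q1 alone, 19 of 33 members had such a p after cerulein in KO-labelled mice (18.3% of all genes). In that fit 16 did in saline (1.26%) and 26 for the difference (6.27%). Without W1 alone, 13 did in saline (0.748%) and 14 for the difference (3.66%). Without S1 alone, 0 did after cerulein in KO-labelled mice (19.7%), in saline (0.693%) or for the difference (3.51%).

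The other tools gave the same count of 0. By DESeq2 no member had an adjusted p under 0.05, while 9.3% of genes passed after cerulein in KO-labelled mice, 34.8% after cerulein in wild type, 0.0768% between genotypes with cerulein and 0.00698% for the difference of responses. Its members at an unadjusted p under 0.05 numbered 6 after cerulein in KO-labelled mice (24.1% of all genes) and 1, Irf9, in wild type (43.8%). They numbered 3 between genotypes in saline (0.461% of all genes), 0 between genotypes with cerulein (9.16%) and 9 for the difference of responses (5.32%). By limma-voom 27.9% of genes and no member passed after cerulein in wild type, with Irf9 the single member at an unadjusted p under 0.05 in any comparison, against 42.0% of all genes in wild type.

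The members varied widely between animals of the same group. The standard deviation within groups, pooled over the 4 groups on the log2 CPM scale with a prior count of 2, had a median of 0.70 over the members, against 0.37 over all genes tested. It exceeded the all-gene median in 32 of 33 members, and without C3 in 33 of 33 (medians of 0.75 against 0.30). Effectors were the most variable at a median of 0.81, GTPases followed at 0.77, sensors at 0.62, transcription factors at 0.58 and class I genes at 0.45. Mx1 had the highest value at 1.43 and Irf9 the lowest at 0.32. These spreads were not matched for level. The lowest count in a library was 6 for Mx1 and 7 for Usp18, against 733 for B2m and 1159 for H2-K1. The part of low counts in the order of the roles was not tested. These are descriptions of 12 animals, with no test attached.

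**Figure D1:**
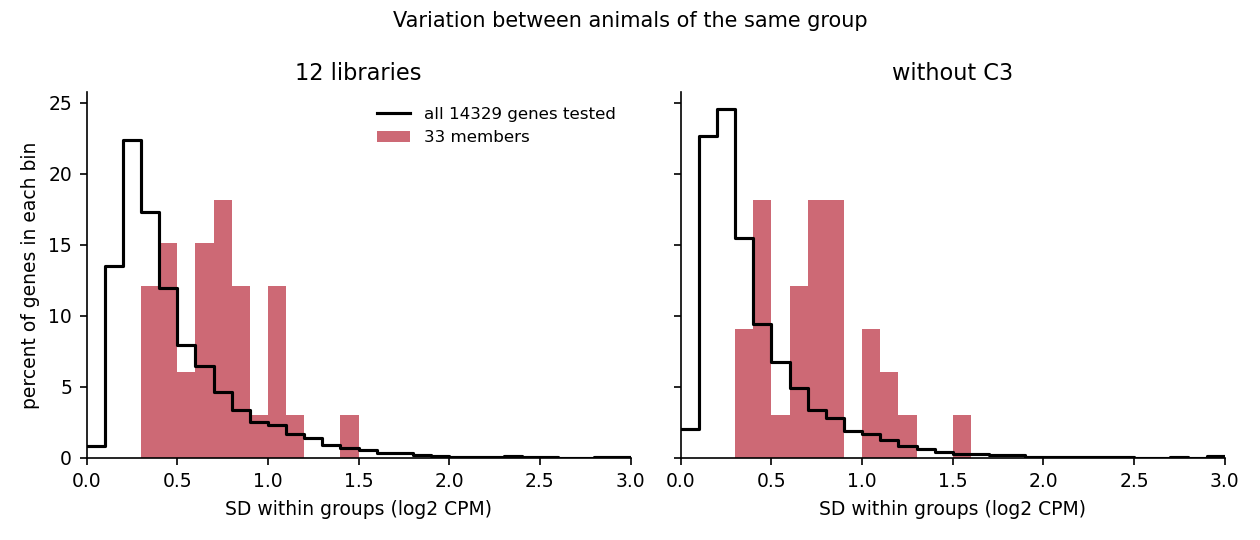
Standard deviation within groups (x axis, log2 CPM) for the 33 members (bars, percent of members per bin) and all 14329 genes tested (line, percent of genes per bin), with all 12 libraries on the left and without C3 on the right. The members' median of 0.70 lies to the right of the all-gene median of 0.37.

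The animals at the extremes were the same for most members. Among KO-labelled saline mice, S1 was highest for 29 of 33 members and Q1 lowest for 33 of 33. Among wild-type saline mice, W1 was highest for 31 and K5 lowest for 27. Among wild-type cerulein mice, N3 was highest for 23, O3 for the other 10, and O1 was lowest for 22. KO-labelled cerulein mice had no such leader, with C2 and C3 each highest for 13 members and L4 for 7. Over all 12 libraries S1 was highest for 23 members, among them 15 of 16 effectors and all 3 sensors, and N3 for 8, among them 4 of 6 class I genes.

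**Figure D2:**
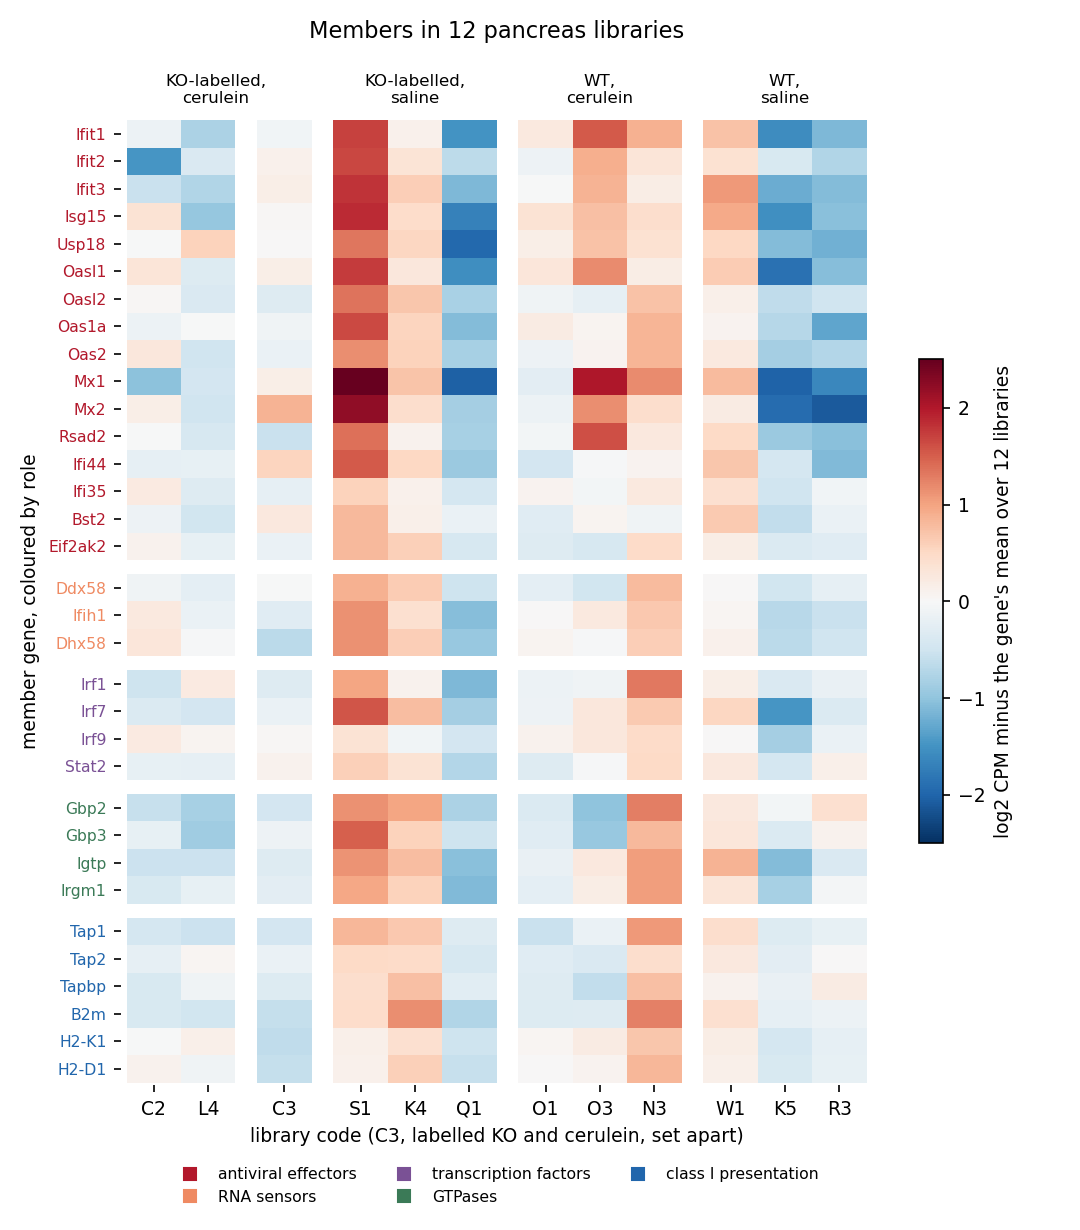
Each cell gives a member's log2 CPM in a library minus its mean over the 12 libraries, with genes grouped and coloured by role and libraries grouped by genotype label and treatment, C3 set apart. S1 is the reddest column for the effectors, N3 and K4 for the class I genes, and Q1 and K5 are blue almost throughout.

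The antiviral effectors carried the widest ranges. Mx1 (ENSMUSG00000000386, GRCm38 chromosome 16, 97447035 to 97462907, minus strand), a dynamin-like GTPase that blocks orthomyxovirus replication, had 0.718 (C2), 1.07 (L4) and 1.64 (C3) CPM in KO-labelled mice with cerulein, against 8.83 (S1), 2.41 (K4) and 0.357 (Q1) CPM with saline. Wild-type Mx1 stood at 1.22 (O1), 5.95 (O3) and 3.33 (N3) CPM with cerulein, against 2.52 (W1), 0.360 (K5) and 0.473 (R3) CPM with saline. Its highest and lowest libraries, S1 and Q1, were both KO-labelled saline mice and differed 24.7-fold. In C57BL/6 mice Mx1 and Mx2 are known as defective genes, and Mx2 is listed in GENCODE as a polymorphic pseudogene, so their RNA need not give working protein.

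Ifit3 (ENSMUSG00000074896, GRCm38 chromosome 19, 34583531 to 34588731, plus strand), one of the tetratricopeptide proteins that bind viral RNA in complexes with Ifit1, had 4.31 (C2), 3.75 (L4) and 7.13 (C3) CPM in KO-labelled mice with cerulein, against 22.2 (S1), 9.71 (K4) and 2.92 (Q1) CPM with saline. Wild-type Ifit3 stood at 6.30 (O1), 11.5 (O3) and 7.22 (N3) CPM with cerulein, against 13.5 (W1), 2.67 (K5) and 2.993 (R3) CPM with saline. S1 and W1 were the highest animals of their saline groups, and in both genotypes the saline range spanned the whole cerulein range. Isg15 (ENSMUSG00000035692, GRCm38 chromosome 4, 156199424 to 156200818, minus strand), a ubiquitin-like modifier, had 6.65 (C2), 2.66 (L4) and 5.30 (C3) CPM in KO-labelled mice with cerulein, against 18.9 (S1), 7.17 (K4) and 1.61 (Q1) CPM with saline. Wild-type Isg15 stood at 6.63 (O1), 8.76 (O3) and 7.08 (N3) CPM with cerulein, against 10.02 (W1), 1.80 (K5) and 2.52 (R3) CPM with saline. The same animals, S1 and W1, led here, and Q1 and K5 were lowest. Bst2 (ENSMUSG00000046718, GRCm38 chromosome 8, 71534255 to 71537456, minus strand), tetherin, which holds budding virus at the cell surface, had 8.69 (C2), 6.85 (L4) and 11.5 (C3) CPM in KO-labelled mice with cerulein, against 16.7 (S1), 10.5 (K4) and 8.52 (Q1) CPM with saline. Wild-type Bst2 stood at 7.74 (O1), 10.1 (O3) and 8.92 (N3) CPM with cerulein, against 15.1 (W1), 6.27 (K5) and 8.51 (R3) CPM with saline. It varied less than the 3 genes above, and its groups overlapped throughout.

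Further effectors are given for what the comparisons below turn on. Ifit1 (ENSMUSG00000034459, GRCm38 chromosome 19, 34640871 to 34650009, plus strand), which recognises RNA caps that lack host methylation, had 6.19 (C2), 4.01 (L4) and 6.52 (C3) CPM in KO-labelled mice with cerulein, against 22.6 (S1), 7.48 (K4) and 2.44 (Q1) CPM with saline. Wild-type Ifit1 stood at 8.14 (O1), 19.8 (O3) and 12.8 (N3) CPM with cerulein, against 11.4 (W1), 2.31 (K5) and 3.15 (R3) CPM with saline. O3 and S1 held the highest values. Rsad2 (ENSMUSG00000020641, GRCm38 chromosome 12, 26442746 to 26456452, minus strand), viperin, which makes a chain-terminating nucleotide, had 6.72 (C2), 5.05 (L4) and 4.60 (C3) CPM in KO-labelled mice with cerulein, against 17.6 (S1), 7.35 (K4) and 3.81 (Q1) CPM with saline. Wild-type Rsad2 stood at 6.45 (O1), 20.7 (O3) and 8.21 (N3) CPM with cerulein, against 9.64 (W1), 3.596 (K5) and 3.31 (R3) CPM with saline. It was the only member whose highest library was O3. Oas1a (ENSMUSG00000052776, GRCm38 chromosome 5, 120896256 to 120907521, minus strand), which makes the oligoadenylate that activates RNase L, had 1.59 (C2), 1.74 (L4) and 1.64 (C3) CPM in KO-labelled mice with cerulein, against 5.53 (S1), 2.58 (K4) and 0.834 (Q1) CPM with saline. Wild-type Oas1a stood at 2.03 (O1), 1.84 (O3) and 3.18 (N3) CPM with cerulein, against 1.88 (W1), 1.08 (K5) and 0.709 (R3) CPM with saline. The cerulein ranges did not overlap between genotypes, although their nearest values lay close together. The remaining effectors include Eif2ak2, the kinase PKR that halts translation, and Usp18, which removes Isg15 from proteins. Together with Ifit2, Oasl1, Oasl2, Oas2, Mx2, Ifi44 and Ifi35, they each had their highest value in S1, and their highest and lowest libraries differed between 2.12-fold (Ifi35) and 19.7-fold (Mx2).

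The RNA sensors, like the effectors, peaked in S1. Ddx58 (ENSMUSG00000040296, GRCm38 chromosome 4, 40203773 to 40239828, minus strand), RIG-I, which detects RNA ends of viral type, had 6.04 (C2), 5.47 (L4) and 6.47 (C3) CPM in KO-labelled mice with cerulein, against 12.01 (S1), 10.2 (K4) and 4.53 (Q1) CPM with saline. Wild-type Ddx58 stood at 5.53 (O1), 4.70 (O3) and 11.2 (N3) CPM with cerulein, against 6.60 (W1), 4.67 (K5) and 5.55 (R3) CPM with saline. S1, N3 and K4 were its highest libraries. Ifih1 (ENSMUSG00000026896, GRCm38 chromosome 2, 62595798 to 62646255, minus strand), MDA5, which detects long double-stranded RNA, had 7.59 (C2), 5.68 (L4) and 5.16 (C3) CPM in KO-labelled mice with cerulein, against 14.0 (S1), 8.37 (K4) and 3.04 (Q1) CPM with saline. Wild-type Ifih1 stood at 6.45 (O1), 7.55 (O3) and 10.2 (N3) CPM with cerulein, against 6.60 (W1), 3.96 (K5) and 4.33 (R3) CPM with saline. Dhx58 (ENSMUSG00000017830, GRCm38 chromosome 11, 100694884 to 100704271, minus strand), LGP2, a regulator of the other sensors, had 2.12 (C2), 1.69 (L4) and 1.08 (C3) CPM in KO-labelled mice with cerulein, against 3.81 (S1), 2.63 (K4) and 0.894 (Q1) CPM with saline. Wild-type Dhx58 stood at 1.80 (O1), 1.69 (O3) and 2.65 (N3) CPM with cerulein, against 1.88 (W1), 1.08 (K5) and 1.22 (R3) CPM with saline. All 3 sensors were highest in S1 and lowest in Q1, both KO-labelled saline mice.

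Among the transcription factors, Irf9 (ENSMUSG00000002325, GRCm38 chromosome 14, 55603571 to 55610030, plus strand), the DNA-binding part of the ISRE complex, had 14.4 (C2), 12.8 (L4) and 12.6 (C3) CPM in KO-labelled mice with cerulein, against 15.8 (S1), 11.5 (K4) and 8.88 (Q1) CPM with saline. Wild-type Irf9 stood at 13.2 (O1), 14.96 (O3) and 17.1 (N3) CPM with cerulein, against 12.3 (W1), 6.83 (K5) and 11.0 (R3) CPM with saline. It was the only member whose wild-type cerulein libraries all lay above all wild-type saline libraries. Irf9 shares 123 exon bases on the same strand with Rnf31 in GENCODE M21, and how reads there were assigned is not given in the sources used here. Irf1 (ENSMUSG00000018899, GRCm38 chromosome 11, 53770014 to 53778374, plus strand), an early target of interferon gamma, had 8.04 (C2), 13.5 (L4) and 9.14 (C3) CPM in KO-labelled mice with cerulein, against 22.6 (S1), 12.3 (K4) and 5.30 (Q1) CPM with saline. Wild-type Irf1 stood at 10.4 (O1), 10.6 (O3) and 28.7 (N3) CPM with cerulein, against 12.9 (W1), 8.84 (K5) and 10.1 (R3) CPM with saline. N3 held its highest value and S1 the next, and Q1 the lowest. Stat2 (ENSMUSG00000040033, GRCm38 chromosome 10, 128270559 to 128292849, plus strand), the partner of Irf9, had 11.4 (C2), 11.3 (L4) and 14.3 (C3) CPM in KO-labelled mice with cerulein, against 20.0 (S1), 16.9 (K4) and 7.92 (Q1) CPM with saline. Wild-type Stat2 stood at 10.6 (O1), 12.9 (O3) and 18.8 (N3) CPM with cerulein, against 15.8 (W1), 9.76 (K5) and 14.6 (R3) CPM with saline. Its cerulein and saline ranges overlapped within each genotype. Irf7 (ENSMUSG00000025498, GRCm38 chromosome 7, 141262706 to 141266481, minus strand), which amplifies type I interferon production, had 3.89 (C2), 3.67 (L4) and 4.45 (C3) CPM in KO-labelled mice with cerulein, against 14.99 (S1), 8.55 (K4) and 2.80 (Q1) CPM with saline. Wild-type Irf7 stood at 4.57 (O1), 6.10 (O3) and 7.93 (N3) CPM with cerulein, against 7.24 (W1), 1.80 (K5) and 3.90 (R3) CPM with saline. S1 was again the highest library and K5 the lowest.

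As a group the GTPases were highest in S1, N3 and K4, at 2.28, 2.07 and 1.66 times their 12-library geometric mean. Gbp2 (ENSMUSG00000028270, GRCm38 chromosome 3, 142620602 to 142638008, plus strand), a guanylate-binding protein that coats vacuoles of intracellular microbes, had 24.2 (C2), 20.1 (L4) and 26.0 (C3) CPM in KO-labelled mice with cerulein, against 79.6 (S1), 70.6 (K4) and 20.7 (Q1) CPM with saline. Wild-type Gbp2 stood at 28.0 (O1), 17.8 (O3) and 87.4 (N3) CPM with cerulein, against 43.3 (W1), 34.3 (K5) and 47.3 (R3) CPM with saline. The KO-labelled saline library Q1 lay within the KO-labelled cerulein range, whereas S1 and K4 lay well above it. Gbp3 (ENSMUSG00000028268, GRCm38 chromosome 3, 142560026 to 142573209, plus strand), a relative in the same gene cluster, had 9.78 (C2), 6.12 (L4) and 10.4 (C3) CPM in KO-labelled mice with cerulein, against 32.1 (S1), 16.9 (K4) and 7.92 (Q1) CPM with saline. Wild-type Gbp3 stood at 9.21 (O1), 5.91 (O3) and 20.0 (N3) CPM with cerulein, against 14.0 (W1), 8.84 (K5) and 12.2 (R3) CPM with saline. Igtp (ENSMUSG00000078853, GRCm38 chromosome 11, 58199556 to 58207591, plus strand), an immunity-related GTPase also called Irgm3, had 3.59 (C2), 3.59 (L4) and 4.17 (C3) CPM in KO-labelled mice with cerulein, against 11.4 (S1), 8.91 (K4) and 2.502 (Q1) CPM with saline. Wild-type Igtp stood at 4.57 (O1), 6.20 (O3) and 10.8 (N3) CPM with cerulein, against 9.44 (W1), 2.47 (K5) and 3.98 (R3) CPM with saline. Igtp shares 162 exon bases on the same strand with Irgm2. The remaining GTPase, Irgm1, a regulator of the vacuole-attacking GTPases, ran from 4.17 CPM (Q1) to 18.6 CPM (N3).

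As a group, class I genes had the lowest median spread within groups (0.45), and their highest libraries were N3 and K4, ahead of S1. Not every range was narrow, since B2m differed 4.04-fold and Tap1 3.14-fold between highest and lowest libraries, against 2.67-fold for Bst2. B2m (ENSMUSG00000060802, GRCm38 chromosome 2, 122147686 to 122153083, plus strand) had 55.6 (C2), 52.5 (L4) and 48.7 (C3) CPM in KO-labelled mice with cerulein, against 102 (S1), 164 (K4) and 43.7 (Q1) CPM with saline. Wild-type B2m stood at 58.4 (O1), 59.0 (O3) and 177 (N3) CPM with cerulein, against 96.5 (W1), 62.8 (K5) and 66.2 (R3) CPM with saline. N3 and K4 stood apart from the other libraries, and B2m was lower in every KO-labelled cerulein library than in every wild-type cerulein library. H2-D1 (ENSMUSG00000073411, GRCm38 chromosome 17, 35262730 to 35267499, plus strand), a heavy chain, had 120.2 (C2), 104 (L4) and 74.3 (C3) CPM in KO-labelled mice with cerulein, against 122 (S1), 169 (K4) and 75.1 (Q1) CPM with saline. Wild-type H2-D1 stood at 114 (O1), 119 (O3) and 199 (N3) CPM with cerulein, against 125 (W1), 85.4 (K5) and 97.0 (R3) CPM with saline. H2-K1 (ENSMUSG00000061232, GRCm38 chromosome 17, 33996017 to 34000347, minus strand) had 97.9 (C2), 109 (L4) and 63.3 (C3) CPM in KO-labelled mice with cerulein, against 109 (S1), 130.2 (K4) and 69.1 (Q1) CPM with saline. Wild-type H2-K1 stood at 102 (O1), 113 (O3) and 158 (N3) CPM with cerulein, against 111 (W1), 72.1 (K5) and 83.7 (R3) CPM with saline. C3 held the lowest level of both heavy chains and N3 the highest. Tap1 (ENSMUSG00000037321, GRCm38 chromosome 17, 34187553 to 34197225, plus strand), a subunit of the peptide transporter of the endoplasmic reticulum, had 4.53 (C2), 4.27 (L4) and 4.50 (C3) CPM in KO-labelled mice with cerulein, against 10.9 (S1), 9.84 (K4) and 4.94 (Q1) CPM with saline. Wild-type Tap1 stood at 4.16 (O1), 5.47 (O3) and 13.1 (N3) CPM with cerulein, against 8.34 (W1), 4.88 (K5) and 5.32 (R3) CPM with saline. It was the only member with every KO-labelled cerulein library below every KO-labelled saline library, and it shares 212 exon bases with Psmb9 on the opposite strand. Tap2, its partner subunit, had the narrowest range of all members, with a 1.89-fold difference between the highest and lowest libraries, and Tapbp, tapasin, which bridges the transporter and the heavy chain, ran from 14.4 CPM (O3) to 37.0 CPM (K4).

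**Figure D3:**
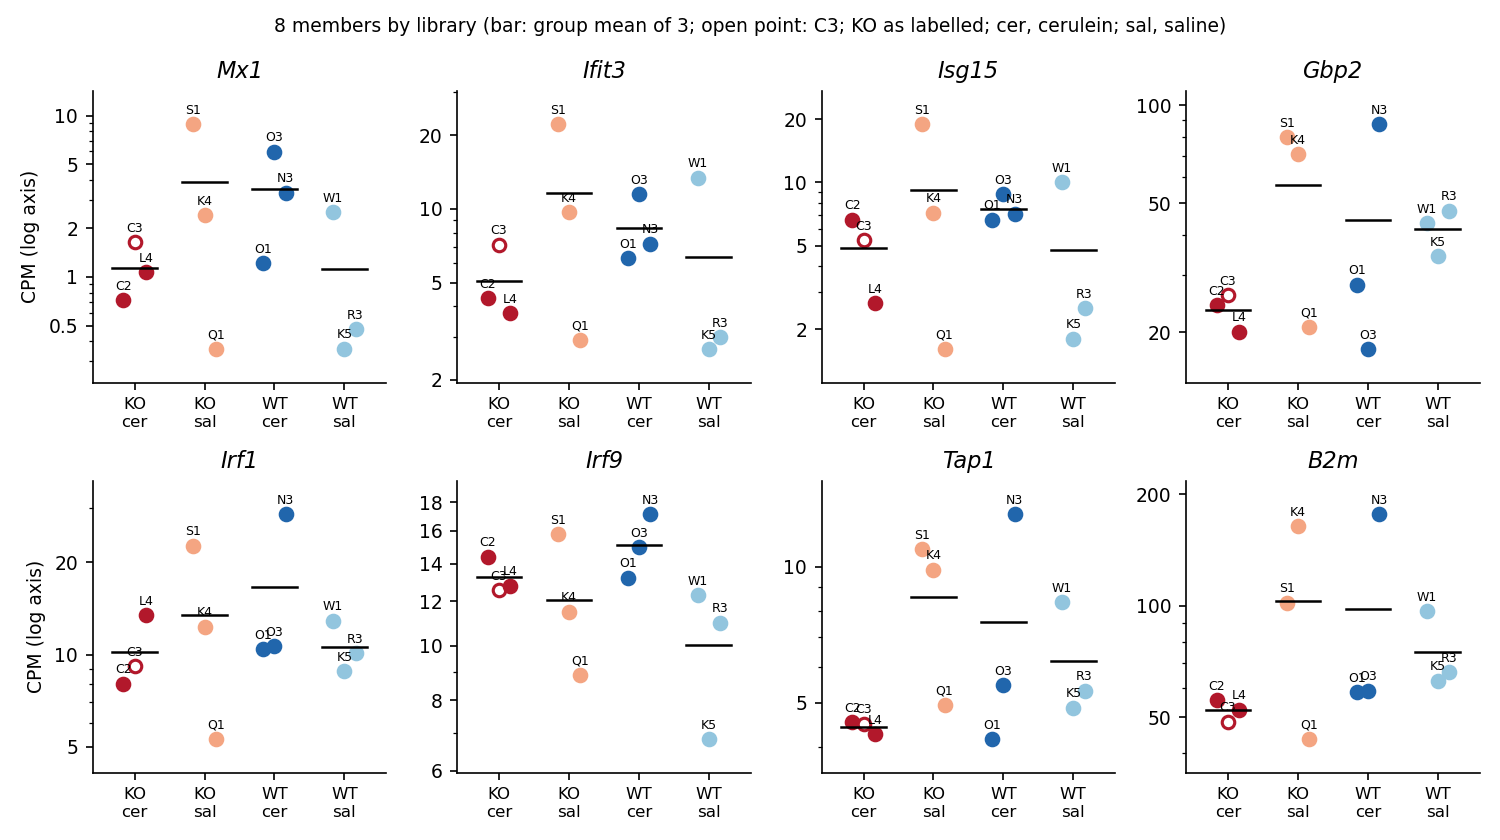
CPM (log axis) of 8 members in each library, by group, with the bar at the mean of the 3 libraries, C3 as an open point and library codes beside the points. For Mx1, Ifit3 and Isg15 the points of S1 and W1 lie above most cerulein points, for B2m those of N3 and K4 are the highest, and for Irf9 all wild-type cerulein points lie above the wild-type saline points.

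Markers of other cell types moved with part of this variation. A library's level of a role group is given as the geometric mean, over its genes, of the ratio to each gene's geometric mean over the 12 libraries. For class I genes it was 1.79 in N3, 1.60 in K4, 1.34 in S1 and 1.19 in W1, and lowest in C3 at 0.725 and Q1 at 0.719. The summed level of 7 pan-leucocyte markers was 295 CPM in N3, 197 in K4, 91.9 in S1, 82.8 in C2, 81.0 in O1 and 80.8 in W1. This sum was lowest in Q1 at 31.6 and C3 at 35.0 CPM. C2 and O1 thus stood beside W1 in the marker sum, while their class I levels were lower, at 0.852 and 0.846. For effectors the level was 2.86 in S1, 1.56 in O3, 1.43 in W1 and 1.38 in N3, and lowest in K5 at 0.485 and Q1 at 0.482. S1 thus had the highest effector level, while its leucocyte sum lay below those of N3 and K4.

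The marker sums by group were as follows. Pan-leucocyte markers ran from 35.0 to 82.8 CPM in KO-labelled cerulein mice, from 31.6 to 197 CPM in KO-labelled saline mice, from 66.0 to 295 CPM in wild-type cerulein mice and from 52.1 to 80.8 CPM in wild-type saline mice. None of the 7 was at 0 in any library. The 10 macrophage and monocyte markers were highest in N3 at 538 CPM and K4 at 402 CPM, the 7 adipocyte markers in K4 at 490 CPM and N3 at 402 CPM, and the 7 B and plasma cell markers in N3 at 596 CPM, W1 at 323 CPM and K4 at 296 CPM. The 8 neutrophil markers summed to 129.6 CPM in N3, 98.1 CPM in K4 and 3.52 CPM in Q1, with Mpo at 0 counts in all 12 libraries. T and NK cell markers (9) stayed at 0.340 CPM in C2, the lowest library, with Cd3d, Cd8a, Ncr1 and Klrb1c at 0 counts. Among markers past the edgeR threshold after cerulein in KO-labelled mice without C3 were 3 of 6 for islets (higher), 3 of 6 for ducts (higher) and 3 of 8 for acinar cells (lower), and none for the other 9 sets. The 6 islet markers summed to 11020 CPM in L4, the highest library, against 1287 CPM in C2, 441 CPM in C3 and 749 to 1121 CPM in KO-labelled saline mice. In wild type the markers past the threshold were 1 of 10 for macrophages (higher), 1 of 7 for endothelium (lower), 4 of 8 for acinar cells (lower) and 3 higher and 1 lower of 6 for ducts, and none for the other 8 sets. Acinar markers were highest in Q1, the library lowest for all members of its group, at 433624 CPM, against 364944 CPM in S1 and 294106 CPM in K4. The part of these cell types in the members' levels was not tested, and fewer cells of a type cannot be told apart from less RNA per cell in such bulk tissue.

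**Figure D4:**
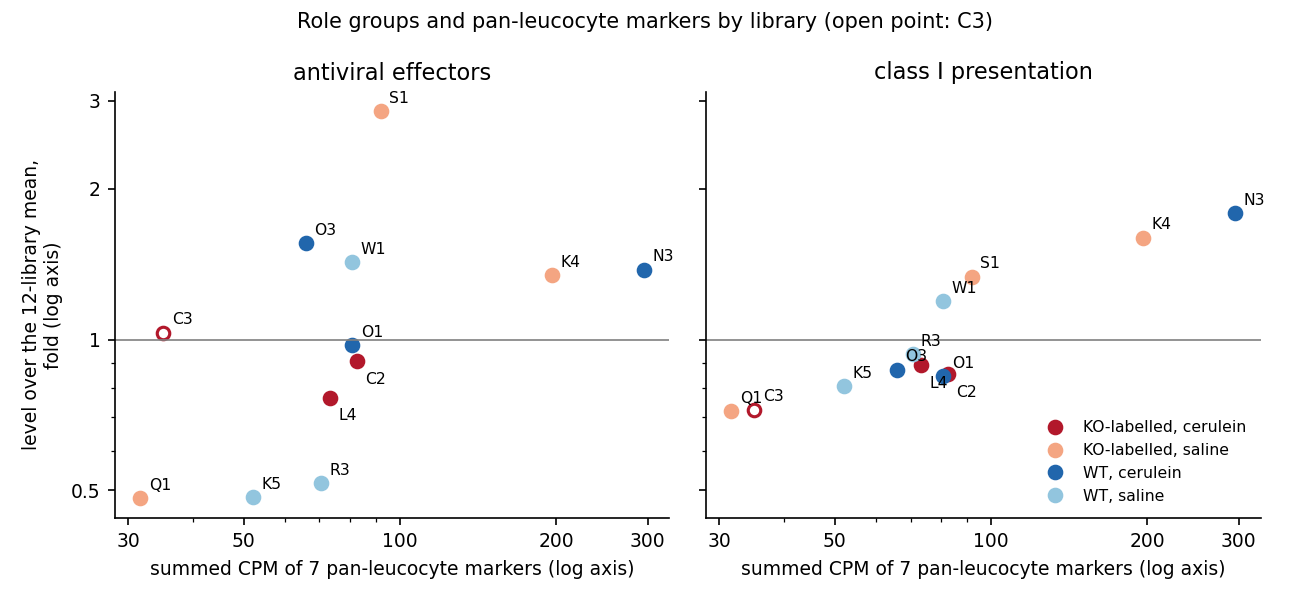
Level of the 16 effectors (left) and the 6 class I genes (right) in each library, as a fold of the 12-library geometric mean (log axis), against the summed CPM of 7 pan-leucocyte markers (log axis). Class I genes are highest in N3 and K4, the libraries with the highest marker sums, whereas the effectors are highest in S1, at 2.86 on the y axis and 91.9 CPM on the x axis.

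After cerulein in KO-labelled mice the members' fold changes were mostly negative, but none passed the test. The median log2 fold change was -0.64 over the 33 members, with 1 positive and 32 negative, against 0.00 over all genes tested. Without C3 it was -0.70, with 2 positive and 31 negative. GTPases had the lowest group median at -1.07, effectors followed at -0.84, sensors at -0.58, class I genes at -0.50 and transcription factors at -0.34. Fold changes of single genes are given as log2 values ± standard error. Tap1 had a log2 fold change of -0.95 ± 0.42 and Gbp2 of -1.28 ± 0.57, with edgeR adjusted p = 0.212 for Tap1 and 0.214 for Gbp2. Mx1 had the most negative value at -1.78 ± 1.002 (edgeR adjusted p = 0.297) and B2m had -0.98 ± 0.50 (edgeR adjusted p = 0.260). Without C3 these were -0.96 ± 0.50 for Tap1, -1.36 ± 0.70 for Gbp2, -2.11 ± 1.23 for Mx1 and -0.93 ± 0.60 for B2m. The smallest adjusted p without C3 was that of Ifit2, at -1.58 ± 0.66 with edgeR adjusted p = 0.0989. The members' median rested on single saline animals. It was -0.14 without S1, with 10 positive and 23 negative, and -1.07 without Q1, with 0 positive and 33 negative. The same animals were at the extremes for most members, so the signs of the members are not separate observations, here or in the comparisons below.

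After cerulein in wild type the fold changes were mostly positive, and again none passed. The median log2 fold change was 0.50 over the 33 members, with 30 positive and 3 negative, against 0.05 over all genes tested. By role the medians were 0.68 for effectors, 0.57 for sensors, 0.56 for transcription factors, 0.34 for class I genes and 0.27 for GTPases. Irf9 came nearest to the threshold, at 0.59 ± 0.25 with edgeR adjusted p = 0.0914. Mx1 had 1.68 ± 1.02, Ifit1 1.28 ± 0.75 and Rsad2 1.10 ± 0.62, with edgeR adjusted p-values of 0.233 for Mx1, 0.217 for Ifit1 and 0.195 for Rsad2. The heavy chains H2-K1 and H2-D1 had 0.48 ± 0.30 and 0.49 ± 0.33. The median was 0.18 without N3, with 21 positive and 12 negative, and 0.28 without K5, with 25 positive and 8 negative. Without W1 it was 0.81, with 33 positive and 0 negative. B2m had 0.38 ± 0.50 with all libraries and -0.36 without N3.

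**Figure D5:**
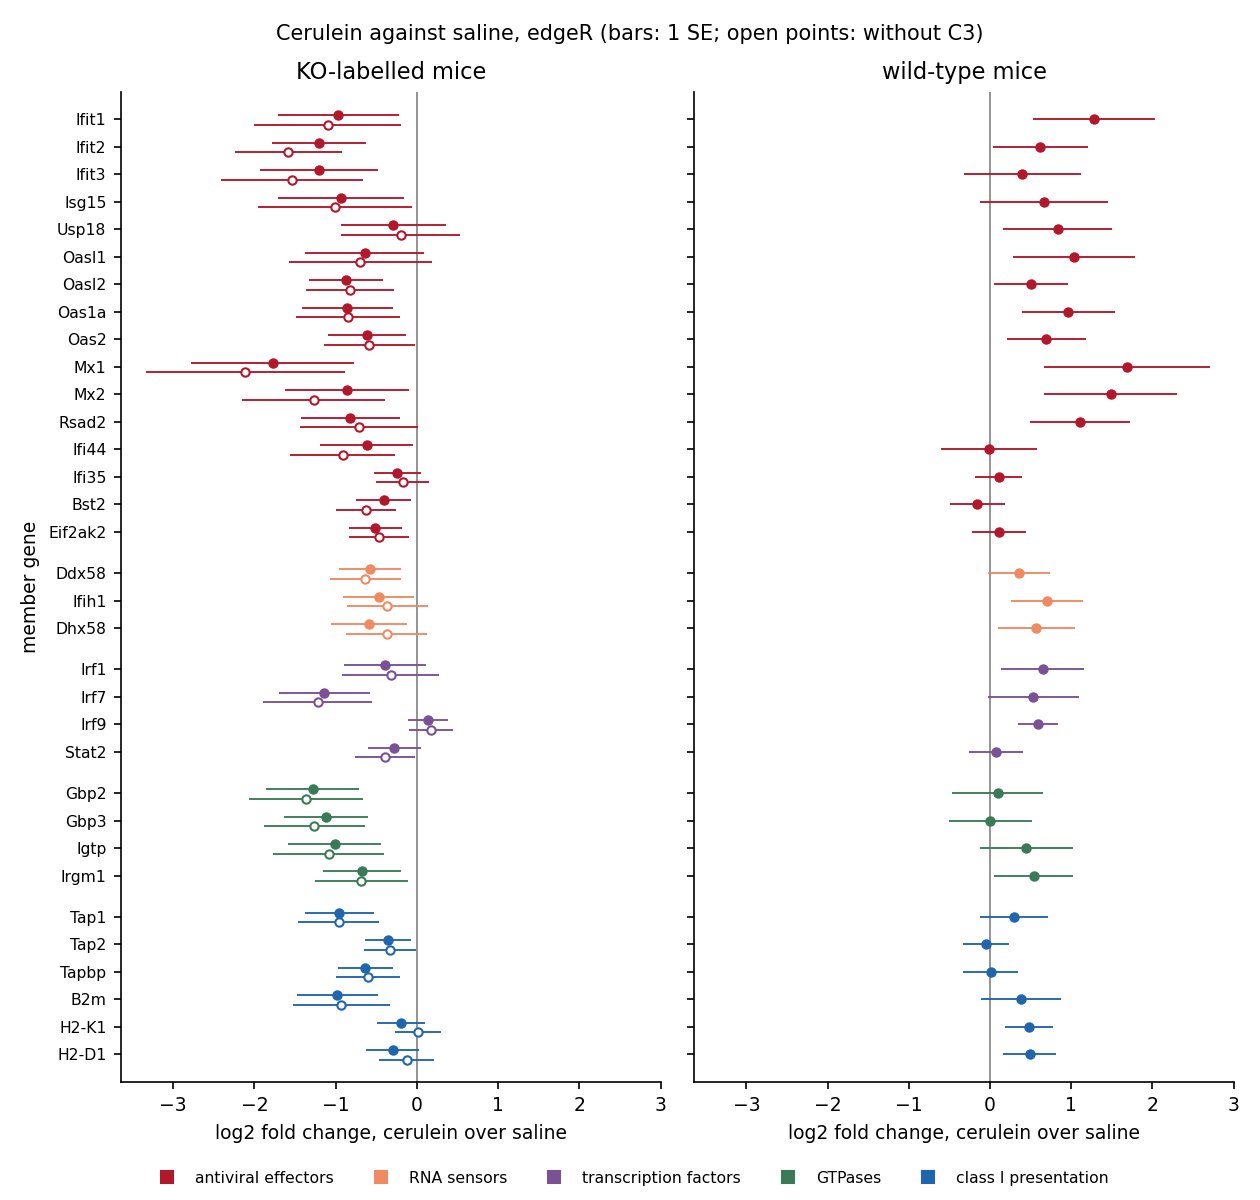
Log2 fold change of cerulein over saline (x axis) for each member, in KO-labelled mice on the left and wild type on the right. Bars give 1 standard error, filled points all 12 libraries and open points, on the left only, the fit without C3. Most points lie below 0 on the left and above 0 on the right, with standard errors from 0.25 (Irf9) to 1.02 (Mx1) in wild type.

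The standard errors show what these numbers could resolve. Over the members their median was 0.50 on the log2 scale in each cerulein comparison, against 0.31 over all genes. For the difference of the responses the members' median was 0.70, against 0.44 over all genes.

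Between genotypes in saline, all 33 members had positive fold changes of KO-labelled over wild type, with a median of 0.70 against 0.01 over all genes, and none passed. Mx2 had 2.05 ± 0.83 and Oas1a 1.32 ± 0.57, each with an edgeR adjusted p = 1.0. Mx2 had 1.32 (C2), 0.833 (L4) and 2.16 (C3) CPM in KO-labelled mice with cerulein, against 5.44 (S1), 1.60 (K4) and 0.655 (Q1) CPM with saline. Wild-type Mx2 stood at 1.07 (O1), 2.61 (O3) and 1.59 (N3) CPM with cerulein, against 1.36 (W1), 0.308 (K5) and 0.276 (R3) CPM with saline. S1 was far above the other saline libraries, Q1 lay within the wild-type saline range and K4 just above it. The members' median was 0.13 without S1, with 27 positive and 6 negative. It was 1.07 without Q1 and 1.04 without W1, each with 33 positive and 0 negative.

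Between genotypes with cerulein the direction was the other way, at a median of -0.47 over the members against 0.01 over all genes, with 2 positive and 31 negative. Ifit1 had -1.29 ± 0.75, Igtp -0.92 ± 0.57 and B2m -0.91 ± 0.50, with edgeR adjusted p-values from 0.633 to 0.635. Without C3 the median was -0.50 with 0 positive and 33 negative, and Ifit1 had -1.41 ± 0.91, Igtp -0.997 ± 0.68 and B2m -0.85 ± 0.59, each with an edgeR adjusted p of 0.984. The median was -0.17 without N3, with 9 positive and 24 negative. For the difference of the responses (KO-labelled minus wild type) all 33 members were negative, with a median of -1.21, against 0.01 over all genes. Mx1 had -3.46 ± 1.43, Rsad2 -1.92 ± 0.87, Ifit2 -1.82 ± 0.83 and Oas1a -1.82 ± 0.80, each with an edgeR adjusted p of 0.812. Without C3 the median was -1.26, again with all 33 negative, and Mx1 had -3.80 ± 1.63, Rsad2 -1.82 ± 0.99, Ifit2 -2.20 ± 0.87 and Oas1a -1.82 ± 0.87, each with an edgeR adjusted p of 0.999. With C3 kept, the median was -0.68 without S1, with 2 positive and 31 negative. Without N3 it was -0.77, with 0 positive and 33 negative. These comparisons share groups with those above, so their signs are not separate evidence.

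Counts of members whose groups did not overlap were below or near the share of all genes, except for members lower in KO-labelled mice between genotypes with cerulein. In KO-labelled mice, 0 members were higher with cerulein in every library (9.41% of all genes) and 1, Tap1, was lower (6.35%). Without C3 the numbers were 0 higher (29.3%) and 1 lower (23.7%). In wild type 1 member, Irf9, was higher with cerulein in every library (27.5%) and 0 were lower (24.9%). Between genotypes in saline, 0 were higher (2.09%) and 0 lower (2.74%) in KO-labelled mice. Between genotypes with cerulein, 0 were higher (5.47%) and 5 lower (4.29%) in KO-labelled mice, namely Ifit1, Oas1a, Irf7, Igtp and B2m. Without C3 these became 0 higher (9.51%) and 8 lower (6.53%), with Ifit2, Ifit3 and Mx1 added. The nearest libraries lay close for some members, at 4.45 (C3) against 4.57 (O1) CPM for Irf7. For B2m they were 55.6 (C2) against 58.4 (O1) CPM, and for Ifit1 6.52 (C3) against 8.14 (O1) CPM. O1 was the lowest wild-type cerulein library for 22 of 33 members, so these members are not separate counts. None passed the test in this comparison.

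Other genes of the pathway were read from 10 lists of 140 matched genes, of which 125 were tested. By edgeR, after cerulein in wild type 5 were higher and 5 lower past the threshold, beside 30.7% of all genes called, and without C3 8 higher and 7 lower of 126, beside 37.9%. After cerulein in KO-labelled mice none passed by edgeR with 12 libraries, and without C3 3 were higher and 7 lower of 126 tested, beside 29.2% of all genes. None passed by edgeR in the other 3 comparisons, with or without C3. With 12 libraries DESeq2 called Psme3 higher and Cxcl9 lower after cerulein in KO-labelled mice, and Cxcl9 lower in KO-labelled than in wild-type mice with cerulein. Of the 10 wild-type calls, those of Jak2, Mavs, Irf2bp2 and Psme3 held under all 19 alternatives, while Stat3 lost its call under 13, Lmbrd1 under 11, Fcgrt under 8, Adar under 7, Azgp1 under 6 and Ticam1 under 3.

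Interferon ligands were close to absent from the counts. Of 10 ligand genes, 6 had 0 counts in all 12 libraries, Ifng had 8 counts in 5 libraries and Ifnb1 2 counts in 2 libraries. None could be tested. Of 15 receptor and JAK-STAT genes tested, 2 rose with cerulein in wild type by edgeR with 12 libraries and none fell. Without C3 edgeR called 4 higher in wild type, adding Ptpn11 and Socs1. With 12 libraries DESeq2 called 5 higher there, with Socs3 the further gene. Jak2, a kinase of the interferon gamma receptor and of many cytokine receptors, rose by 2.28 ± 0.46 (edgeR adjusted p = 0.00926), and Stat3 rose by 0.61 ± 0.21 (edgeR adjusted p = 0.0495). In KO-labelled mice without C3, Ptpn11, a phosphatase, rose by 0.54 ± 0.14 and Il10rb, a receptor chain shared by type III interferon, fell (-0.48 ± 0.14), with edgeR adjusted p-values, in this order, of 0.0174 and 0.0249. In wild type Ptpn11 had 0.53 ± 0.19 with 12 libraries (edgeR adjusted p = 0.0511) and rose by 0.53 ± 0.13 in the fit without C3 (edgeR adjusted p = 0.00846), while Il10rb had -0.29 ± 0.12 in that fit (edgeR adjusted p = 0.0885).

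Of 13 genes of nucleic acid sensing, 2 fell with cerulein in wild type by edgeR with 12 libraries and none rose. By edgeR without C3, and by DESeq2, 1 gene, Tmem173, was called higher in wild type beside the same 2 lower. Mavs, the mitochondrial adaptor of Ddx58 and Ifih1, fell (-1.54 ± 0.34, edgeR adjusted p = 0.0111), as did Ticam1, the adaptor of Tlr3 (-0.78 ± 0.20, edgeR adjusted p = 0.0152). Mavs also fell in KO-labelled mice without C3 (-1.15 ± 0.15, edgeR adjusted p = 0.000281). Of 7 other interferon regulatory genes, 1 fell in both genotypes, the corepressor Irf2bp2, with a log2 fold change of -0.65 ± 0.18 in KO-labelled mice without C3 (edgeR adjusted p = 0.0189) and -1.10 ± 0.23 in wild type (edgeR adjusted p = 0.00932).

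Of 40 other interferon-stimulated genes tested, 1 rose with cerulein in wild type by edgeR with 12 libraries, Adar, an RNA-editing enzyme with an interferon-inducible form. Its log2 fold change was 1.28 ± 0.17 in KO-labelled mice without C3 (edgeR adjusted p = 0.000374) and 1.11 ± 0.32 in wild type (edgeR adjusted p = 0.0257). DESeq2 called 4 of these genes higher in wild type, adding Ifi209, Slfn5 and Ifi203. Ly6e, a membrane protein that limits entry of some viruses, fell in KO-labelled mice without C3 (-1.03 ± 0.30, edgeR adjusted p = 0.0235). In wild type Ly6e had -0.92 ± 0.38 with 12 libraries (edgeR adjusted p = 0.0857) and fell in the fit without C3 (-0.92 ± 0.26, edgeR adjusted p = 0.0165). The list's median log2 fold change was -0.51 in KO-labelled mice without C3 and 0.61 in wild type. Of 14 further GTPases, Gbp4 fell in KO-labelled mice without C3 (-1.68 ± 0.54, edgeR adjusted p = 0.0410) and none passed in wild type. Their most abundant genes, Iigp1 and Gbp5, averaged 7.25 and 7.83 CPM in KO-labelled mice with cerulein, against 16.02 and 17.4 CPM with saline. In wild type they averaged 21.2 and 16.5 CPM with cerulein, against 9.42 and 11.4 CPM with saline. The median log2 fold change of the 14 further GTPases in wild type was 0.50 with 12 libraries. With C3, N3 and K4 left out, it was -0.36 in wild type and -1.21 in KO-labelled mice.

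The interferon-inducible chemokines Cxcl9 and Cxcl10, which draw T cells, passed edgeR's test in no comparison, with or without C3. DESeq2 called Cxcl10 higher after cerulein in wild type and made the Cxcl9 calls given above, and edgeR called Cxcl9 lower after cerulein in KO-labelled mice when C3, N3 and K4 were left out. Cxcl10 had 8.196 (C2), 7.73 (L4) and 9.43 (C3) CPM in KO-labelled mice with cerulein, against 38.5 (S1), 13.2 (K4) and 1.25 (Q1) CPM with saline. Wild-type Cxcl10 stood at 11.6 (O1), 34.5 (O3) and 29.8 (N3) CPM with cerulein, against 13.3 (W1), 1.70 (K5) and 2.28 (R3) CPM with saline. Its highest libraries were S1, O3 and N3. Cxcl9 was highest in N3 at 16.5 CPM and K4 at 8.02 CPM, the libraries with the highest class I levels.

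Of 12 immunoproteasome and peptide-supply genes, 2 rose with cerulein in wild type by edgeR with 12 libraries. Psmb8, Psmb9, Psmb10, Psme1 and Psme2 were among those that did not pass. Psme3, a proteasome activator of the nucleus, rose by 0.999 ± 0.14 in KO-labelled mice without C3 (edgeR adjusted p = 0.000550) and by 1.14 ± 0.22 in wild type (edgeR adjusted p = 0.00918). Lmbrd1, known as a lysosomal cobalamin exporter, rose in wild type (0.51 ± 0.17, edgeR adjusted p = 0.0429). Of 14 further genes of the class I family, none rose and 2 fell. Azgp1, a secreted lipid-binding relative of class I, fell in KO-labelled mice without C3 (-2.32 ± 0.30, edgeR adjusted p = 0.000271) and in wild type (-2.09 ± 0.57, edgeR adjusted p = 0.0209). Fcgrt, the neonatal Fc receptor, fell in KO-labelled mice without C3 (-1.29 ± 0.40, edgeR adjusted p = 0.0336) and in wild type (-1.12 ± 0.38, edgeR adjusted p = 0.0439). No MHC class II gene passed by edgeR, of 8 tested with 12 libraries or of 9 without C3, in either genotype. Cd74 and H2-Aa, the most abundant, averaged 34.9 and 15.1 CPM in KO-labelled mice with cerulein, against 86.95 and 32.8 CPM with saline. In KO-labelled mice without C3 the fold changes were -1.30 ± 0.65 for Cd74 and -1.18 ± 0.56 for H2-Aa, with a list median of -1.18. They averaged 96.9 and 37.0 CPM in wild type with cerulein, against 75.1 and 29.3 CPM with saline. The list median log2 fold change in wild type was 0.36 with 12 libraries. With C3, N3 and K4 left out, the list median was -0.36 in wild type and -0.42 in KO-labelled mice.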

How the data were processed

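Whole pancreas of 12 mice was sequenced, with 1 library per animal. The deposited values are raw read counts per Ensembl gene, with no normalization by the authors. HTSeq, DESeq2 and build mm10 are named, without versions or roles, per the submitters' processing notes. Per the labels the kit was stranded, while neither aligner nor strand setting is stated in the labels or files. Of 49585 identifiers, 49326 matched GENCODE M21 on GRCm38.

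After filterByExpr and TMM scaling, edgeR 4.0.16 (R 4.3.3) fitted all 12 libraries at once, with 1 coefficient per group and robust quasi-likelihood dispersions. P-values are two-sided, with Benjamini-Hochberg adjustment across every tested gene and a threshold of 0.05. The standard error is the log2 fold change over the square root of F. The steps were tested on simulated data. Alternatives were DESeq2 1.42.0, limma-voom (limma 3.58.1), other scalings, no filter, and each library left out. Tables and figures used Python 3.11.15, pandas 2.3.3, NumPy 2.4.6 and matplotlib 3.10.9. Totals of 18292997 to 32158629 counts limit precision for members with few counts. The labels give no batch, sex or litter, so none was modelled, and p-values cover the spread between these animals.

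The members and lists were chosen with earlier results of these data known. Members past the threshold (none) and the 3 most abundant per length in each role were to be given by library. Mx1, Mx2, Ifit1, Rsad2, Oas1a, Irf7, Tap1 and Cxcl10 were added after their values were seen. Pathway genes named were up to 4 per list past the threshold with the smallest adjusted p, or the 2 most abundant. Of 141 listed pathway genes 1 was not matched. The lists held 89 cell type markers in 12 sets.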

Additional observations from a re-analysis of the deposited data

How the results depend on the processing

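No member passed the threshold under any of the 19 alternatives in any of the 5 comparisons. The alternatives were DESeq2, limma-voom, DESeq2 size factors, scaling without the 50 most abundant genes, no filter on low counts, each of the 12 libraries left out in turn, and 2 chosen after seeing the data, leaving out N3 and K4, and leaving out C3, N3 and K4. Over these, the members' median log2 fold change ran from -1.07 to -0.14 for cerulein in KO-labelled mice and from 0.14 to 0.81 for cerulein in wild type. It ran from 0.13 to 1.07 between genotypes in saline, from -0.60 to -0.09 between genotypes with cerulein and from -1.61 to -0.65 for the difference of responses. The end of each range nearest to 0 came from leaving out S1 (cerulein in KO-labelled mice, and saline), C3, N3 and K4 (cerulein in wild type, and between genotypes with cerulein) or N3 and K4 (the difference of responses).

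Of 46 named gene results followed through the alternatives, 1 changed sign, B2m after cerulein in wild type. It was -0.36 without N3, -0.39 without N3 and K4, and -0.39 without C3, N3 and K4. Over leaving out single libraries this value ran from -0.36 to 0.65, and N3 held the highest B2m level. Values outside these results also changed sign. H2-K1 after cerulein in KO-labelled mice had -0.19 with 12 libraries and 0.01 without C3. The wild-type medians of the class II genes and of the further GTPases turned negative with C3, N3 and K4 left out. Of the pathway genes called in wild type, Jak2, Mavs, Irf2bp2 and Psme3 kept their call under every alternative. Stat3 lost it in 13, Lmbrd1 in 11, Fcgrt in 8, Adar in 7, Azgp1 in 6 and Ticam1 in 3 of the 19. No paired analysis was possible because the library codes differ from group to group. With 3 animals a group and the members' spread, changes of the size seen here could not be told from variation between animals.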
